A study of Mus musculus with 8 samples.

Results

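The genes described here are the 9 core genes of the major histocompatibility complex (MHC) class I presentation pathway: the immunoproteasome subunits Psmb8, Psmb9 and Psmb10, the peptide transporter genes Tap1 and Tap2, the loading factor Tapbp, and the class I molecules B2m, H2-K1 and H2-D1. They were taken as every probe set annotated to 1 of the 9 symbols. This gave 21 of the 30506 probe sets, of which 2 are shared with other H2 genes: 1424948_x_at is annotated to both H2-K1 and H2-D1, and 1422348_at to Gm38417, H2-Q2 and H2-D1. A probe set is a group of short probes on the array that together report 1 transcript. The members were compared between the genotypes, line by line.

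RNA came from primary mouse embryonic fibroblasts, cells grown straight from embryos and kept in short-term culture. The 4 wild-type (WT) lines were compared with 4 lines from embryos homozygous for null alleles of both cryptochromes, Cry1-/-|Cry2-/- (Cry DKO), with 1 Affymetrix 3' expression array per line. Cryptochromes are the repressors that close the negative loop of the circadian clock. Both genotypes share a near-C57BL/6J background, reached by over 7 backcrosses from mixed BL6/129 mice. Both were grown without treatment in DMEM/F10 with 10% fetal calf serum at 3% oxygen, proliferating and not synchronised. The null alleles are not limited to a cell type by the labels, which call the lines of each genotype independent. The labels give neither the age and sex of the embryos nor whether a line holds more than 1 embryo.

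Class I molecules display short peptides from proteins made inside the cell to CD8+ T cells. Peptides are cut by the proteasome, moved into the endoplasmic reticulum by the transporter that Tap1 and Tap2 form, and fitted with the help of tapasin (Tapbp) into a heavy chain, such as H2-K1 or H2-D1, that is held by beta-2-microglobulin (B2m). In cells exposed to interferon, Psmb8, Psmb9 and Psmb10 replace the constitutive catalytic subunits Psmb5, Psmb6 and Psmb7 and form the immunoproteasome. Fibroblasts keep these genes at a basal level, and blood-derived cells such as macrophages use them more heavily.

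All values are log2 signals, so a difference of 1 is a 2-fold change, and differences are Cry DKO minus WT. Genotypes were compared with limma, a linear model with shared variance estimates, over the 18267 probe sets whose mean reached the 40th percentile of all probe sets (6.05, here the floor). A gene was called when its Benjamini-Hochberg adjusted p was under 0.05, and each gene was represented by its brightest probe set of its own. Array medians lay between 6.78 and 6.79, and within a group a tested probe set had a median SD of 0.14. The Cry1 probe set gave 6.79 ± 0.40 in WT against 6.29 ± 0.31 in Cry DKO lines (SD, n = 4 each), and that of Cry2 gave 7.20 ± 0.18 against 6.87 ± 0.20. The groups overlapped at both. No label says where these probes sit relative to the deletions, and the genotype labels are therefore not checked by them. Of 12 fibroblast markers measured, 9 were tested and had high signal (mean 13.1 ± 0.06 against 13.0 ± 0.11, WT first), while Pdgfra (5.63 against 5.38), Dcn (5.84 against 5.33) and Lum (5.24 against 4.85) lay below the floor. None of the 9 was called, but all 9 differences were negative (median -0.07), among them Col1a1 (-0.20, limma adjusted p 0.121, no overlap) and Pdgfrb (-0.17, limma adjusted p 0.116).

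Of the 9 genes, 3 rose in Cry DKO lines: Psmb8, Psmb10 and H2-K1. In each of these 3, every Cry DKO line lay above every WT line. H2-D1, B2m, Tapbp and Tap1 were tested and were not called, and Psmb9 and Tap2 were too dim to be tested. No member fell. Over all 9515 tested genes, 4.25% were called higher and 8.31% had every Cry DKO line above every WT line. The median difference over the 7 tested members was 0.32, against -0.01 over all tested genes. At the level of probe sets, 5 of the 15 tested were called, all higher, where 3.54% of all tested probe sets were called higher and 6.57% in either direction. The called sets other than those of Psmb8 and Psmb10 belong to H2-K1 and H2-D1, whose sets can share signal and are not independent. The members were chosen with earlier results of these data known. The gene count depends on single lines: it was 0 without WT line 1, WT line 3 or Cry DKO line 2, 1 without WT line 2, 2 without Cry DKO line 1, 3 or 4, and 4 without WT line 4. These fits hold fewer lines, and over all probe sets they called 523 to 905, against 1200 with all 8 lines. Of 23 macrophage and blood cell markers, 11 also rose in the Cry DKO lines. The count of members called was 0 with the mean of those markers as a covariate, and 0 with the mean of the interferon-stimulated genes, a covariate added after the data were seen. Each covariate differs between the genotypes, and over all probe sets they left 25 and 19 calls of 1200. The loss of calls is therefore not particular to the members.

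Psmb8, also called LMP7, carries the chymotrypsin-like activity of the immunoproteasome and had the largest difference among the 7 tested members. Its signal was 6.17, 5.79, 5.81 and 6.44 in WT lines 1 to 4 and 7.53, 7.05, 6.66 and 6.70 in Cry DKO lines 1 to 4. The highest WT line, line 4, stayed below the lowest Cry DKO line, line 3, and the Cry DKO lines were spread over nearly 1 log2 unit. The mean rose from 6.05 ± 0.31 to 6.98 ± 0.40 (SD, n = 4 each), a difference of 0.93 (SE 0.21, 95% interval 0.47 to 1.39) or 1.91-fold, with a limma adjusted p of 0.0261. The WT mean sits at the floor. The call was lost without WT line 1, 2 or 3 or Cry DKO line 2; over the 8 fits with a line left out, the difference ranged from 0.75 to 1.06 and the limma adjusted p from 0.0249 to 0.0769.

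Psmb10, or MECL-1, the immunoproteasome's trypsin-like subunit, changed less but varied least. It measured 8.08, 8.14, 8.08 and 8.13 in WT lines 1 to 4 and 8.38, 8.49, 8.40 and 8.43 in Cry DKO lines 1 to 4. The lines of each genotype lay within about 0.1 of each other, and a clear gap separated the groups. The mean rose from 8.11 ± 0.03 to 8.43 ± 0.05 (SD, n = 4 each), a difference of 0.32 (SE 0.07, 95% interval 0.17 to 0.47) or 1.25-fold, with a limma adjusted p of 0.0202. The call was lost without WT line 1, WT line 3 or Cry DKO line 2 (differences 0.30 to 0.34, limma adjusted p 0.0333 to 0.0608 over the 8 fits).

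Psmb9, or LMP2, takes the place of Psmb6. It lay below the floor, at 5.61, 4.94, 5.10 and 4.66 in WT lines 1 to 4 and 5.44, 5.57, 5.17 and 5.23 in Cry DKO lines 1 to 4. WT line 1 was the highest of the 8, so the groups overlapped. The means were 5.08 ± 0.40 and 5.36 ± 0.19 (SD, n = 4 each). A limma fit without a floor gave a difference of 0.28 (SE 0.23, 95% interval -0.21 to 0.77, adjusted p 0.584), an interval that holds both no change and the size seen for Psmb10.

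The genomic order of 4 members on chromosome 17 is Psmb9, Tap1, Psmb8, Tap2, with no other protein-coding gene between them in RefSeq's annotation of GRCm38.p6. The promoters of the called subunits are shown so that they can be set against these values. With them is the stretch between the 2 head-to-head genes Psmb9 and Tap1. Of these, Tap1 was tested and not called, and Psmb9 was too dim to be tested. Sequences are RefSeq's on GRCm38.p6, 5′ to 3′ along the gene, and capitals mark matches to the 4 less common motifs searched (gamma-activated site, E-box, interferon response core and NF-kappaB consensus). The first 2 hold the 200 bases before the start of Psmb8 (chr17:34197995-34198194, plus strand) and of Psmb10 (chr8:105938393-105938592, minus strand). The third is the 225 bases between the starts of Psmb9 and Tap1 (chr17:34187331-34187555, plus strand, the direction of Tap1).
Psmb8: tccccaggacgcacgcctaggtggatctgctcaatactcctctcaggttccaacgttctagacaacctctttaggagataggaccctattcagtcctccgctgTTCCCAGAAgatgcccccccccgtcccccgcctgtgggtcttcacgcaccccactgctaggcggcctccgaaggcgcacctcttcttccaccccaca
Psmb10: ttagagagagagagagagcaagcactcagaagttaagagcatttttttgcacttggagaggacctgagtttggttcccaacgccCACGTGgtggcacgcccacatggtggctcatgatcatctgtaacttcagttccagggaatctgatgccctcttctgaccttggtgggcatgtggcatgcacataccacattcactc
Psmb9-Tap1: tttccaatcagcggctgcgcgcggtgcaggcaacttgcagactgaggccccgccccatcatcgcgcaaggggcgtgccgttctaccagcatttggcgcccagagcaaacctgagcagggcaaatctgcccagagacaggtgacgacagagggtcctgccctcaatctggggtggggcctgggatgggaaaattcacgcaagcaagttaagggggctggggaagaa
Each motif was searched on both strands in the 250 bases before the start, in 32817 promoter windows of all genes; 8 of the 9 members have a window and Tap2 has none. The Psmb8 capitals are a match to the gamma-activated site TTCNNNGAA, which 7.01% of all windows hold. The match lies 97 to 89 bases before the start. In the Psmb10 window the capitals are the E-box CACGTG, 116 to 111 bases before the start and present in 6.02% of all windows; the clock pair CLOCK and ARNTL, which cryptochromes repress, binds such letters. Neither motif, nor the interferon response core GAAANNGAAA, was found in the windows of Psmb9 and Tap1. A match is a description of the letters and not evidence of binding. Whether any match bears on the differences between the genotypes was not tested. Sequences repeated across the genome were not masked, so whether a match lies in such a repeat was not tested.

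The constitutive subunits that the immunoproteasome subunits replace did not pass the test. Psmb5 differed by -0.06 (SE 0.06, limma adjusted p 0.623), Psmb6 by 0.01 (SE 0.05, limma adjusted p 0.947) and Psmb7 by -0.03 (SE 0.05, limma adjusted p 0.739). Their 95% intervals, -0.18 to 0.07, -0.10 to 0.12 and -0.13 to 0.07, lie below the differences of Psmb8 and Psmb10. Each subunit was therefore also set against its constitutive partner within each array, in a family of 6 pairs chosen after the data were seen. The log2 ratio of Psmb8 to Psmb5 was higher in Cry DKO lines by 0.99 (SE 0.23) and that of Psmb10 to Psmb7 by 0.35 (SE 0.03), and neither overlapped between the groups. Both gave an exact two-sided permutation p of 0.0286, the smallest that the 70 assignments of 4 against 4 lines allow, and 0.0571 after adjustment over the 6 pairs. Psmb8 and Psmb10 alone already separated the groups and their partners varied little, so these p-values restate that separation. The ratio of Psmb9 to Psmb6 differed by 0.27 (SE 0.23, exact permutation p 0.314, adjusted 0.314).

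The rest of the proteasome showed 1 call. Among 11 other subunits of the core particle, 0 were called (median 0.02), with Psma5 at 0.16 and Psma1 at 0.13. Among 17 subunits of the regulatory cap, which unfolds substrates, 0 were called (median 0.05), with Psmd8 at -0.11 and Psmc4 at 0.38. Of 9 activators and assembly factors (median 0.07), the 1 called was Psme1, the alpha subunit of the interferon-inducible PA28 activator. Psme1 measured 9.57, 9.73, 9.56 and 9.63 in WT lines 1 to 4 and 9.87, 9.82, 9.83 and 9.89 in Cry DKO lines 1 to 4. The groups did not overlap, and the mean rose from 9.62 ± 0.08 to 9.85 ± 0.03 (SD, n = 4 each), a difference of 0.23 (SE 0.06, limma adjusted p 0.0429). That call was lost in 7 of the 8 fits with a line left out, all but the one without WT line 2 (differences 0.21 to 0.27, limma adjusted p 0.0439 to 0.115). Pomp, the assembly chaperone that immunoproteasomes depend on, differed by 0.06 (SE 0.07, limma adjusted p 0.670), and Psme2, the partner of Psme1, was not analysed here.

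The transporter genes did not pass the test. Tap1 measured 6.02, 6.47, 6.14 and 6.79 in WT lines 1 to 4 and 6.10, 6.39, 6.21 and 6.30 in Cry DKO lines 1 to 4. WT line 4 was the highest of all 8 and the Cry DKO lines lay inside the WT range. The means were 6.35 ± 0.35 and 6.25 ± 0.13 (SD, n = 4 each), a difference of -0.10 (SE 0.17, 95% interval -0.48 to 0.27, limma adjusted p 0.761) whose sign turned without WT line 4 (0.04). A second Tap1 probe set, 1420274_at, was near the bottom of the scale (2.20 and 2.15); without a floor its 95% interval was -1.63 to 1.52. The 95% intervals of Tap1 and of its neighbour Psmb8 do not meet. The log2 ratio of Psmb8 to Tap1 within arrays was higher in Cry DKO lines by 1.04 (SE 0.29), with an exact two-sided permutation p of 0.0286, adjusted 0.0571 over the 6 pairs. Psmb8 alone had already separated the groups when this pair was chosen.

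Tap2, the other transporter chain, had a mean over all arrays of 6.04 and so fell just under the floor. It measured 5.61, 5.93, 5.97 and 6.04 in WT lines 1 to 4 and 6.30, 6.24, 6.34 and 5.90 in Cry DKO lines 1 to 4. The groups overlapped, since Cry DKO line 4 lay below WT lines 2, 3 and 4. Without a floor, limma gave a difference of 0.30 (SE 0.16, 95% interval -0.04 to 0.65, adjusted p 0.357).

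Tapbp, which bridges the transporter and the empty class I molecule, measured 9.40, 9.36, 9.45 and 9.48 in WT lines 1 to 4 and 9.90, 9.67, 9.46 and 9.44 in Cry DKO lines 1 to 4. Cry DKO lines 1 and 2 lay above all WT lines, and Cry DKO lines 3 and 4 lay among them. The difference was 0.19 (SE 0.10, limma adjusted p 0.254). Its second probe set, 1450378_at, differed by 0.30 (SE 0.12, limma adjusted p 0.174). Of 7 tested genes of peptide trimming and loading, 0 were called (median 0.00); Erap1, which trims peptides in the endoplasmic reticulum, differed by 0.12 and Npepps, a cytosolic aminopeptidase, by -0.06.

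The heavy chains H2-K1 and H2-D1 are close copies of each other and of other H2 genes. Most of their probe sets carry the _x_at suffix, which marks probes that can match more than 1 sequence, so signal of related H2 genes may be included and the genes' own levels are uncertain. At the brightest own H2-K1 probe set, 1425336_x_at, signal was 9.13, 9.35, 8.90 and 9.38 in WT lines 1 to 4 and 9.64, 9.62, 9.43 and 9.63 in Cry DKO lines 1 to 4. The groups did not overlap, though WT line 4 came close to Cry DKO line 3. The mean rose from 9.19 ± 0.22 to 9.58 ± 0.10 (SD, n = 4 each), a difference of 0.39 (SE 0.10, 95% interval 0.16 to 0.62) or 1.31-fold, with a limma adjusted p of 0.0491. This value is next to the threshold: the call was lost in 7 of 8 fits with a line left out, all but the one without WT line 4 (differences 0.29 to 0.45, limma adjusted p 0.0436 to 0.117). It was also lost with no floor (limma adjusted p 0.0580), quantile normalisation (0.0502) and no intensity trend (0.0828).

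The other H2-K1 probe sets did not all move alike. At 1451931_x_at the difference was 0.50 (SE 0.13, limma adjusted p 0.0409), with groups that met at WT line 4 (9.07) and Cry DKO line 3 (9.05). That call was lost in 6 of 8 fits with a line left out, all but those without WT line 4 or Cry DKO line 3 (0.41 to 0.60, limma adjusted p 0.0279 to 0.109). At 1427746_x_at the difference was 0.12 (SE 0.20, limma adjusted p 0.765), and 1450534_x_at lay below the floor at 3.47 ± 1.41 and 4.16 ± 0.61 (SD, n = 4 each), with a 95% interval of -0.61 to 2.0 in the fit without one. The set shared by H2-K1 and H2-D1, 1424948_x_at, went from 6.06 ± 0.05 to 6.42 ± 0.21 (SD, n = 4 each). Its groups did not overlap, but the difference of 0.36 (SE 0.13) had a limma adjusted p of 0.135.

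At the brightest own H2-D1 probe set, 1451784_x_at, signal was 9.74, 9.63, 9.96 and 10.23 in WT lines 1 to 4 and 10.51, 10.38, 10.13 and 10.28 in Cry DKO lines 1 to 4. WT line 4 lay above Cry DKO line 3. The means were 9.89 ± 0.27 and 10.32 ± 0.16 (SD, n = 4 each), a difference of 0.43 (SE 0.12, 95% interval 0.16 to 0.70) with a limma adjusted p of 0.0617; without WT line 4 it was 0.55 and was called (limma adjusted p 0.0209).

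A nearly equally bright set, 1425545_x_at, was called: 9.91 ± 0.21 against 10.29 ± 0.06 (SD, n = 4 each), a difference of 0.38 (SE 0.09, limma adjusted p 0.0379) with no overlap. It was lost in 6 of 8 fits with a line left out, all but those without WT line 2 or WT line 4 (0.29 to 0.43, limma adjusted p 0.0350 to 0.0965). The sets 1451683_x_at (0.58, SE 0.18, limma adjusted p 0.0803) and 1426324_at (0.47, SE 0.19, limma adjusted p 0.163) did not pass. The set 1426324_at reached the floor only through its Cry DKO mean (5.83 in WT against 6.30 in Cry DKO lines). It counts among the tested sets, so its difference is a description. The sets 1450170_x_at and 1422348_at lay below the floor, with 95% intervals of -1.06 to 1.29 and -1.09 to 1.98 in the fit without one. Which of the 2 heavy chains is called thus depends on the probe set: with the mean of each gene's tested sets in place of the brightest, a choice made after the data were seen, limma called H2-D1 (0.47, SE 0.12, adjusted p 0.0290) and not H2-K1 (0.34, SE 0.13, adjusted p 0.126).

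B2m, the light chain, did not pass the test. It measured 12.52, 12.40, 12.63 and 12.59 in WT lines 1 to 4 and 12.57, 12.54, 12.69 and 12.75 in Cry DKO lines 1 to 4. The groups overlapped. The difference was 0.10 (SE 0.06, 95% interval -0.04 to 0.24, limma adjusted p 0.371), and 0.07 (SE 0.05, limma adjusted p 0.414) at 1452428_a_at. Within arrays the log2 ratio to B2m differed by 0.29 for H2-K1 (exact permutation p 0.143) and by 0.33 for H2-D1 (exact permutation p 0.114), both 0.171 after adjustment over the 6 pairs.

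The promoters of the class I molecules are shown because B2m holds a match to the interferon response core. They are also shown because the near-identity of the heavy-chain genes extends upstream of them. Only the letters of each motif as given were searched, so elements that differ from them would be missed. The B2m sequence is the 200 bases before its start (chr2:122147487-122147686, plus strand). The heavy-chain stretches are 30 bases at chr17:34000439-34000468 (minus strand, H2-K1) and chr17:35262913-35262942 (plus strand, H2-D1).
B2m: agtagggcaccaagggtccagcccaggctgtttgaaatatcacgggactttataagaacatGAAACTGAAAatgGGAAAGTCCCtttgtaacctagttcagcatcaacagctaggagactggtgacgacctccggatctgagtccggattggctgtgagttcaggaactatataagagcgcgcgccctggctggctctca
H2-K1: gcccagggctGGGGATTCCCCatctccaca
H2-D1: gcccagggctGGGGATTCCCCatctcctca
In B2m the first capitals match the interferon response core GAAANNGAAA, found in 2.97% of all windows, and the second the NF-kappaB consensus, found in 2.13%; the 2 matches do not overlap. In H2-K1 and H2-D1 the capitals are overlapping matches to the NF-kappaB consensus on both strands. When the promoter windows of the 2 heavy chains were aligned on that match, 166 of 190 positions were identical (87.4%). The common motifs CCAAT (33.8% of all windows) and TGACG (17.7%) were found in 6 and 5 members and are not capitalised; both lie in the Psmb9-Tap1 stretch and in the B2m sequence.

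Among the other class I and class II genes, 1 was called. H2-M3, a non-classical heavy chain that presents formylated peptides, measured 6.24, 6.75, 6.30 and 6.82 in WT lines 1 to 4 and 7.38, 7.07, 6.91 and 7.24 in Cry DKO lines 1 to 4. The groups did not overlap, and the difference of 0.62 (SE 0.16) had a limma adjusted p of 0.0429, lost in 6 of 8 fits with a line left out, all but those without WT line 4 or Cry DKO line 3 (0.52 to 0.72, limma adjusted p 0.0381 to 0.112). It was 1 of 4 tested genes of that list (median 0.16). Of 4 class II genes, which professional antigen-presenting cells use, only H2-DMa was above the floor (-0.27, SE 0.19, limma adjusted p 0.435). The invariant chain Cd74 (5.15 against 5.33, WT first), the class II activator Ciita (3.77 and 3.84) and H2-DMb2 (4.03 and 4.69) lay below it.

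Transcription factors that control the class I genes showed 1 call among 15 tested (median 0.04). Irf9, the DNA-binding part of the type I interferon factor ISGF3, measured 6.97, 7.19, 7.12 and 7.61 in WT lines 1 to 4 and 7.65, 7.64, 7.83 and 8.03 in Cry DKO lines 1 to 4. The groups did not overlap, with WT line 4 next to the Cry DKO lines. The difference was 0.57 (SE 0.14, limma adjusted p 0.0385), lost in 7 of 8 fits with a line left out, all but the one without WT line 4 (0.48 to 0.69, limma adjusted p 0.0149 to 0.101). Nlrc5, the class I transactivator, lay below the floor (4.06 against 3.62, WT first). Of 10 tested interferon receptor and signalling genes, 0 were called (median -0.02).

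Interferon-stimulated genes gave 7 calls among 15 tested, all higher in Cry DKO lines (median 0.49); a further 12 measured genes lay below the floor. The 4 of smallest p were Trim30a (0.92, limma adjusted p 0.0289), the RNA sensor Oas1a (0.92, limma adjusted p 0.0332), Rtp4 (1.53, limma adjusted p 0.0345) and Parp9 (0.65, limma adjusted p 0.0346). Rtp4 overlapped between the groups. Each of the 4 calls was lost in 6 or 7 of the 8 fits with a line left out, and each held without WT line 4. Trim30a (5.78 in WT lines on average), Rtp4 (5.75) and Igtp (5.88) passed the floor only through their Cry DKO means, so the count of calls in this list is a description. The mean of the 15 genes was 7.03, 7.07, 6.99 and 7.62 in WT lines 1 to 4 and 7.66, 7.57, 7.98 and 7.72 in Cry DKO lines 1 to 4, so WT line 4 was above Cry DKO line 2.

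Markers of macrophages and other blood cells also had higher signal in the Cry DKO lines. All 23 listed markers were tested, all 23 differences were positive and 11 were called (median 0.80), among them Cd14 (0.92), the lysozyme gene Lyz2 (0.83), Cd53 (0.92) and the macrophage growth factor receptor Csf1r (0.84). The summed linear signal of the 23 was 8735 to 13491 in WT and 13902 to 26405 in Cry DKO lines, and all 23 had a mean over the 8 arrays above the floor. Trem2, with the largest difference of the list (1.32), passed it only through its Cry DKO mean (5.43 in WT against 6.75 in Cry DKO lines). Their mean log2 signal was 8.57, 7.94, 8.27 and 8.41 in WT lines 1 to 4 and 9.60, 9.14, 8.58 and 8.88 in Cry DKO lines 1 to 4. Of other cell types, 1 of 2 measured dendritic cell markers (Zbtb46, -0.15), 0 of 4 endothelial markers and 2 of 4 epithelial markers (Krt18, -0.30, and Krt19, 0.02) were above the floor, and none was called. Lymphocyte markers were not analysed here. In RNA from whole cultures, more cells of a type and more RNA per cell cannot be told apart.

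The mean of the 9 members was 8.03 and 8.19 in WT lines 1 and 4, close to 8.0 in WT lines 2 and 3, and 8.48, 8.44, 8.28 and 8.30 in Cry DKO lines 1 to 4. Among the Cry DKO lines the order was 1, 2, 4, 3 for the members and for the macrophage markers, and 3, 4, 1, 2 for the interferon-stimulated genes. Among the WT lines the orders differed. They were 4, 1, 3, 2 for the members, 1, 4, 3, 2 for the macrophage markers and 4, 2, 1, 3 for the interferon-stimulated genes. Correlations were taken at each gene's brightest set, after removal of the genotype means. The correlation with the macrophage marker mean over the 8 arrays was 0.88 for Psmb8, 0.84 for Tapbp and 0.63 for H2-D1. It was 0.14 for H2-K1, -0.20 for B2m, -0.24 for Tap1 and -0.33 for Psmb10. For Psmb9 it was 0.47 and for Tap2 -0.08, both below the floor. Within the genotypes, Psmb8 and the brightest Tapbp set were high in the lines with high marker means, and Psmb10 was not. Between the genotypes, Psmb10 and the marker mean were both higher in every Cry DKO line than in every WT line. The other Tapbp set, 1450378_at, ran differently: Cry DKO lines 1 and 2 were its lowest Cry DKO lines (7.26 each) and WT line 2 its highest WT line (7.32). So did the nearly equally bright H2-D1 set, 1425545_x_at. WT line 2, lowest in the marker mean, was with WT line 4 its highest WT line (10.08 each). At the brightest H2-D1 set WT line 2 was the lowest (9.63). The correlation with the mean of the interferon-stimulated genes was 0.65 for Tap1, 0.39 for Tap2, 0.38 for B2m, 0.36 for H2-D1, 0.32 for H2-K1, 0.19 for Psmb8, 0.08 for Psmb10, -0.17 for Tapbp and -0.75 for Psmb9. Points of these correlations share an array and its normalisation, and they are given as a description.

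With the macrophage marker mean as a covariate, none of the members was called by limma. The difference of Psmb8 became 0.27 (SE 0.22, adjusted p 0.592), that of the brightest H2-D1 set 0.14 (SE 0.16, adjusted p 0.725) and that of the brightest Tapbp set -0.08 (SE 0.11, adjusted p 0.774). The other tested sets of these 2 genes did not become smaller: for H2-D1 they were 0.41 at 1425545_x_at (0.38 without the covariate), 0.63 at 1451683_x_at (0.58) and 0.50 at 1426324_at (0.47), and for Tapbp 0.48 at 1450378_at (0.30), with limma adjusted p from 0.245 to 0.474. The difference of Psmb10 was 0.35 (SE 0.11, adjusted p 0.191) and that of H2-K1 0.34 (SE 0.17, adjusted p 0.374), against 0.32 (SE 0.07) and 0.39 (SE 0.10) without the covariate. The covariate is itself higher in every Cry DKO line, and over all probe sets it left 25 calls of 1200. With the mean of the interferon-stimulated genes as covariate instead, Psmb8 differed by 0.78 (SE 0.36), Psmb10 by 0.31 (SE 0.12), H2-K1 by 0.26 (SE 0.17) and H2-D1 by 0.25 (SE 0.20), with 19 calls left over all probe sets. What part either group of genes has in the differences of the members was not tested beyond these fits.

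The genes whose line-to-line deviations from the genotype means were most like those of the member mean, out of 9508 ranked over the 8 arrays, were Ctsb (r 0.99), Atm, Elmo2 and Zmiz2 (0.98 each), Sdcbp, Lgals3 and Slc45a4 (0.97 each) and 1700037H04Rik (0.96). Of these 8 genes, 0 were called between the genotypes. Their rank rests on WT line 4, the highest WT line in all 8: without it r was 0.93 to 0.99 over 7 arrays, but 0 of the 8 were among the 8 most alike.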

How the data were processed

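Values were used as deposited and taken as log2 signals from their range (0.07 to 14.3); log base, probe summary and normalisation are stated by no source used here. GCOS, the Affymetrix array software, is listed in the submitters' processing notes, which give no version. Per the labels, RNA was extracted with Trizol and labelled from 5 ug. Array medians nearly coincide, so a global change in RNA amount would not be seen, and 0 columns were identical. Of 30506 probe sets, 61 are controls (left out); the platform's annotation names 1 gene for 24838 (24757 found in RefSeq's GRCm38.p6 annotation), several for 658 and none for 4949. No detection calls were used; the number of arrays and the signal over background limit the precision.

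Genotypes, taken from the sample titles, were compared in R 4.3.3 (limma 3.58.1; intensity trend, no covariate), and p-values measure the spread between lines. Alternatives were a replicate block, other floors, normalisation, probe set and variance settings, array weights, covariates and each line left out. The fit was tested on simulated data. The members and all 16 gene lists (209 genes) were chosen with earlier results of these data known. From each list the text names called genes up to the 4 of smallest p, otherwise up to 2, with the catalytic, activator and class II lists free to be named; genes below the floor, and Psme2, Nlrc5, Igtp and Trem2, were named after the data were seen.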

Additional observations from a re-analysis of the deposited data

Results flagged for a closer look

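In 108 groups of 4 lines (the named probe sets and list means in each genotype), the gap of the highest or lowest line to its nearest neighbour, as a share of the group's range, was set against Dixon's 95% critical value. It was exceeded 8 times, and chance alone gives about 1 in 20 groups. Cry DKO line 3 was the lowest of its group at both called H2-K1 probe sets: at 1425336_x_at (9.43, next 9.62, gap share 0.909) and at 1451931_x_at (9.05, next 9.40, gap share 0.886). It was the highest at Parp9 (7.64, next 7.37, gap share 0.873). Cry DKO line 2 was the highest at the H2-D1 probe sets 1425545_x_at (10.38, next 10.27, gap share 0.847) and 1451683_x_at (7.94, next 7.64, gap share 0.831). WT line 4 was the highest WT line in the mean of the 9 members (8.19, next 8.03, gap share 0.857) and in the mean of the interferon-stimulated genes (7.62, next 7.07, gap share 0.862). WT line 1 was the highest at the dim shared set 1422348_at (3.91, next 1.90, gap share 0.859).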

How the results depend on the processing

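The number of called genes was 3 with the replicate block, 1 probe set per gene, array weights or the mean of tested sets, and 2 with no floor, a floor at the 60th percentile, quantile normalisation or no intensity trend; H2-K1 was the call lost except at the 60th percentile, where Psmb8 was not tested. The replicate block changed no call of a member probe set but, among the other named genes, gained Psmc4 (limma adjusted p 0.0114) and Col1a1 (0.0319) and lost Psme1 (0.0507); same-numbered lines correlated at 0.35, 0.13, 0.23 and -0.02 in their deviations, and WT lines 1 to 3, but not 4, correlated best with their own number, so the numbers were not taken as pairs. With the macrophage or the interferon-stimulated mean as a covariate, 0 genes and 0 member probe sets were called, and 25 and 19 of all probe sets, from 1200; each covariate differs between the genotypes. Called member probe sets fell from 5 to 3 with 1 probe set per gene, where fewer were tested, and to 2 with no intensity trend, where the cause was not tested. With a line left out, 0 to 4 genes, 0 to 7 member probe sets and 523 to 905 of all probe sets were called, with fewer lines in each fit. The sign turned with the macrophage covariate for Tap1 (0.0265), Tapbp (-0.0795), Npepps (0.0644), Zbtb46 (0.0745) and Krt19 (-0.267). With a line left out it turned for Tap1 (-0.216 to 0.0398), H2-K1 at 1427746_x_at (-0.0690 to 0.291), Psmb6 (-0.0137 to 0.0265), Zbtb46 (-0.27 to 0.0410) and Krt19 (-0.0601 to 0.10), none of them called; the cause was not tested. Low signal limits Psmb9, Tap2 and the dim H2 probe sets, whose intervals are wide.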

Other observations

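The members did not vary as 1 block from line to line. Correlations were taken over the 8 arrays at the brightest probe set of each gene, after removal of the genotype means. They were 0.85 between Psmb8 and Tapbp, 0.73 between Psmb8 and H2-D1 and 0.67 between Tapbp and H2-D1. A different pair of correlations joined Tap1 to Psmb10 (0.74) and to H2-K1 (0.70). These pairings depend on the probe set. The H2-D1 set 1425545_x_at was lowest in WT line 3 (9.65) and highest in WT lines 2 and 4 (10.08 each). H2-K1 had the same lowest and highest WT lines, while the brightest H2-D1 set was lowest in WT line 2 (9.63). Tapbp at 1450378_at was lowest among Cry DKO lines in lines 1 and 2 (7.26 each), where Psmb8 was highest (7.53 and 7.05). Psmb9 and Tap1, which start from opposite sides of the same short stretch of DNA, gave -0.74, with Psmb9 below the floor. The values are across arrays that share a normalisation and are given as a description only.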
